A study of Homo sapiens with 12 samples.

Results

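This account follows 10 genes for amino acid transporters of the plasma membrane, of 58037 genes in the deposited count table, across 12 RNA-seq libraries of human breast cancer cells. The genes are SLC7A11, SLC7A5, SLC3A2, SLC7A1, SLC1A4, SLC1A5, SLC6A9, SLC38A1, SLC38A2 and SLC43A1, of the SLC1, SLC3, SLC6, SLC7, SLC38 and SLC43 families, and each was found in the table through its Ensembl identifier. They were selected on the measured response of both cell lines to MUC1 silencing, the fold changes between MUC1shRNA and CshRNA libraries. Their values in that response and in the difference between the lines' responses are therefore given as a description, without a test. The same holds for comparisons of the lines with each other, which use the same libraries.

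The 4 groups, of 3 libraries each, were BT-549 cells with MUC1shRNA, BT-549 cells with CshRNA, SUM149 cells with MUC1shRNA and SUM149 cells with CshRNA. BT-549 and SUM149 are established lines of triple-negative breast cancer, a class defined by lack of estrogen receptor, progesterone receptor and HER2. Transcripts of these receptors are given with the markers below. MUC1shRNA is a stably expressed short hairpin RNA against MUC1-C, the membrane-spanning subunit of the mucin MUC1, and CshRNA is a control hairpin. The BT-549 controls are called CshRNA in their titles and vector in their descriptions, and whether they carried a hairpin is open to doubt. BT-549 grew in RPMI1640 with 10% fetal bovine serum and insulin. SUM149 grew in Ham's F-12 with 5% serum, insulin and hydrocortisone. A single MUC1 hairpin name is given. Nothing in the labels tells separate introductions of the hairpin from parallel cultures of 1 population, so a p-value here reflects the spread between 3 sets that may be technical.

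Amino acids cross the plasma membrane through transporters that are uniporters, ion-coupled importers or exchangers. SLC3A2, a glycoprotein with a single membrane span, carries its light chains SLC7A5 and SLC7A11 to the cell surface. When amino acids run short, uncharged tRNA activates the kinase EIF2AK4 (GCN2), translation of the transcription factor ATF4 increases, and ATF4 with C/EBP partners activates genes of amino acid synthesis and transport. Its composite binding sites resemble TGATGNAA. SLC7A11 is also a known target of NFE2L2 (NRF2), whose sites contain TGACNNNGC, and SLC7A5 and SLC1A5 are known targets of MYC, which binds the E-box CACGTG.

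Promoter windows from RefSeq on GRCh38.p14, running from 250 bases before to 50 bases after an annotated start, were at hand for 9 of the 10 genes, not for SLC7A11, with 16 windows in all. Both strands were searched for the 3 motifs, and no match overlapped another in these windows. TGATGNAA was found in 5 of the 9 genes (5 of 16 windows), and in 4.46% of all 27305 genes (3.62% of 35116 windows). Windows at other annotated starts of SLC1A4, SLC1A5, SLC38A1 and SLC3A2 held no TGATGNAA. For SLC1A5 the window at the 5′ end of the gene (chr19:46788545-46788844) held none of the 3 motifs. TGACNNNGC was found in 4 of the 9 genes (4 of 16 windows) and in 16.1% of all genes (13.3% of windows). CACGTG was found in 3 of the 9 genes (3 of 16 windows) and in 8.77% of all genes (7.26% of windows). Genes differ in their number of windows, so shares of genes are to be read beside those of windows. The 30 bases around each TGATGNAA match are shown because this is the motif tied to the amino acid response, written 5′ to 3′ on the gene's strand with the match in capitals. In SLC1A4 and SLC3A2 the match is the reverse complement.
SLC1A4 (chr2:64989381-64989410, plus strand): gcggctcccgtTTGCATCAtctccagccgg
SLC1A5 (chr19:46784893-46784922, minus strand): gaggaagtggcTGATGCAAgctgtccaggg
SLC38A1 (chr12:46266502-46266531, minus strand): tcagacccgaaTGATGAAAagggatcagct
SLC3A2 (chr11:62881719-62881748, plus strand): gtaatgtgcaggactccTTACATCAgctcc
SLC7A1 (chr13:29595663-29595692, minus strand): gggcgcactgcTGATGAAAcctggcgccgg

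SLC7A5 and SLC3A2 encode the subunits of one transporter and differed in the size of their change in SUM149, so a whole window of each is shown. Capitals mark CACGTG, then TGACNNNGC, in SLC7A5, and TGACNNNGC, then TGATGNAA in reverse complement, in SLC3A2. Other SLC3A2 windows, at 2 other annotated starts, held no match. These letters describe the windows and are not evidence of binding.
SLC7A5 (chr16:87869458-87869757, minus strand): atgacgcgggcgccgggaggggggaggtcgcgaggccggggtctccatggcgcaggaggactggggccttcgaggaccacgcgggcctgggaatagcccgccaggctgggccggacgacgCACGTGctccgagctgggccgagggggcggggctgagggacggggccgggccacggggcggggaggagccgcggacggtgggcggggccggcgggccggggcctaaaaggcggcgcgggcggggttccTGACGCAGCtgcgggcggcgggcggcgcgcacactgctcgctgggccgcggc
SLC3A2 (chr11:62881449-62881748, plus strand): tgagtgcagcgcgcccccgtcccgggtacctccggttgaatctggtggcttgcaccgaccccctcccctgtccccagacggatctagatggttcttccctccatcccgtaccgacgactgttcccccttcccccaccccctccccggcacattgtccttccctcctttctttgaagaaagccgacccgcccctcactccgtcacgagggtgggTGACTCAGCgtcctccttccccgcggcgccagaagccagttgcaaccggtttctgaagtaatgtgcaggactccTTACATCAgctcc

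Libraries of BT-549 held 16373893 to 21248768 counts with MUC1shRNA and 16332364 to 20745835 with CshRNA. SUM149 libraries held 7931614 to 9623924 counts with MUC1shRNA and 19392422 to 24140623 with CshRNA, so the control group was 2.44 times as deep. Levels below are CPM, counts scaled to a common library total after scaling all 12 libraries together by TMM. MUC1 itself lay at 3.60 to 6.02 CPM in BT-549 MUC1shRNA libraries against 51.9 to 54.3 CPM in CshRNA libraries, a log2 fold change of -3.53 (SE 0.14, adjusted p = 4.19e-07, edgeR). In SUM149 it lay at 0.334 to 1.06 CPM with MUC1shRNA against 12.1 to 16.6 CPM with CshRNA, a log2 fold change of -4.59 (SE 0.27, adjusted p = 1.81e-08, edgeR). Libraries that stood apart from their replicates were BT-549 MUC1shRNA 2, BT-549 CshRNA 3 and SUM149 CshRNA 3. In bulk libraries such as these, fewer cells expressing a gene and less transcript per cell cannot be told apart.

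The transporters built on SLC3A2 come first. SLC7A11 (ENSG00000151012.13, GRCh38 chromosome 4, 138164097 to 138242349, minus strand) encodes xCT, which imports cystine in exchange for glutamate and so feeds glutathione synthesis. In SUM149 its levels were 4.37, 2.90 and 3.28 CPM in MUC1shRNA libraries 1, 2 and 3, against 115, 117 and 101 CPM in CshRNA libraries 1, 2 and 3. Every silenced library thus lay far below every control library, with 26 to 37 counts of SLC7A11 left in each. The log2 fold change was -4.98 (SE 0.13), which is 31.5-fold lower. BT-549 gave 82.1, 58.6 and 77.6 CPM in its MUC1shRNA libraries and 56.2, 55.3 and 45.4 CPM in its CshRNA libraries. All 3 silenced BT-549 libraries were above the controls, but MUC1shRNA 2, which stood apart from its replicates, was close to them. The log2 fold change in BT-549 was 0.48 (SE 0.12), and 0.52 without MUC1shRNA 2 and CshRNA 3. Of its exon bases, 8.97% are shared with SLC7A11-AS1 on the opposite strand, which had at most 15 counts in any library.

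SLC3A2 (ENSG00000168003.16, chromosome 11, 62856102 to 62888875, plus strand) encodes the shared heavy chain, CD98. Its SUM149 levels were 245, 272 and 245 CPM with MUC1shRNA and 555, 571 and 566 CPM with CshRNA, a log2 fold change of -1.14 (SE 0.06). The 2 sets did not overlap. In BT-549, levels of 721, 733 and 753 CPM with MUC1shRNA overlapped those of 741, 697 and 682 CPM with CshRNA, and the log2 fold change was 0.05 (SE 0.05).

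SLC7A5 (ENSG00000103257.8, chromosome 16, 87830023 to 87869488, minus strand) encodes LAT1, the exchanger that brings in leucine and other large neutral amino acids. It stood at 635, 752 and 648 CPM in SUM149 with MUC1shRNA and at 1220, 1151 and 1097 CPM with CshRNA. The silenced libraries were again all lower, by a smaller factor than for SLC3A2, with a log2 fold change of -0.76 (SE 0.08). In BT-549 the levels of 2044, 1955 and 2090 CPM with MUC1shRNA fell within the span of the controls, which had 2297, 1994 and 1941 CPM. The log2 fold change there was -0.04 (SE 0.07). The pseudogene SLC7A5P1 held 1 to 14 counts per library, and 5.71% of SLC7A5 exon bases are shared with AC126696.2 on the opposite strand.

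Carriers of small neutral amino acids and glutamine followed. SLC1A5 (ENSG00000105281.12, chromosome 19, 46774883 to 46788594, minus strand) encodes ASCT2, a sodium-dependent exchanger that takes up glutamine. Its SUM149 levels were 59.1, 74.2 and 62.0 CPM with MUC1shRNA and 250, 247 and 229 CPM with CshRNA. The silenced libraries were all far below the controls, with no overlap and a log2 fold change of -1.88 (SE 0.09). SLC1A5 was also lower in silenced BT-549, at 304, 303 and 301 CPM against 363, 337 and 376 CPM with CshRNA, by a log2 fold change of -0.25 (SE 0.05). It was the 1 gene of the 10 whose silenced libraries lay below all controls in both lines. The strand setting of the counting is not given, and 23.8% of its exon bases are shared with other genes, nearly all of them with AC008622.2 on the opposite strand.

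SLC1A4 (ENSG00000115902.10, chromosome 2, 64988477 to 65023865, plus strand) encodes ASCT1, an exchanger of alanine, serine and cysteine. It had 10.4, 11.1 and 11.8 CPM in SUM149 with MUC1shRNA against 36.5, 36.4 and 36.7 CPM with CshRNA, a log2 fold change of -1.70 (SE 0.09). The 3 control libraries were nearly equal, and all silenced libraries lay below them. In BT-549, 19.1, 12.5 and 18.2 CPM with MUC1shRNA overlapped 15, 15.5 and 12.3 CPM with CshRNA. The log2 fold change of 0.22 (SE 0.16) became 0.40 (SE 0.11) without MUC1shRNA 2, the low library of its group.

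SLC38A1 (ENSG00000111371.15, chromosome 12, 46183063 to 46270017, minus strand) encodes SNAT1, a sodium-coupled importer of glutamine and other neutral amino acids. It changed least of the 10 in SUM149, with 504, 440 and 478 CPM with MUC1shRNA against 715, 679 and 676 CPM with CshRNA and a log2 fold change of -0.53 (SE 0.07). The sets still did not overlap. BT-549 had 512, 491 and 527 CPM with MUC1shRNA and 511, 498 and 445 CPM with CshRNA, which overlapped, at a log2 fold change of 0.07 (SE 0.06).

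SLC38A2 (ENSG00000134294.13, chromosome 12, 46358189 to 46372867, minus strand) encodes SNAT2, a related importer known to be induced when amino acids are scarce. With MUC1shRNA it had 357, 317 and 352 CPM in SUM149, against 783, 789 and 708 CPM with CshRNA, a log2 fold change of -1.14 (SE 0.07). BT-549 moved the other way, with 1076, 1079 and 1069 CPM under MUC1shRNA and 657, 631 and 576 CPM under CshRNA. In neither line did the sets overlap, and the BT-549 log2 fold change was 0.79 (SE 0.06).

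The other 3 genes encode carriers with other substrates. SLC7A1 (ENSG00000139514.12, chromosome 13, 29509410 to 29595688, minus strand) encodes CAT1, which takes up arginine and lysine. Its SUM149 levels of 190, 200 and 199 CPM with MUC1shRNA lay below 430, 406 and 415 CPM with CshRNA, at a log2 fold change of -1.07 (SE 0.06). In BT-549 the silenced libraries, at 634, 614 and 635 CPM, lay above the controls, at 499, 473 and 491 CPM. The log2 fold change was 0.36 (SE 0.05).

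SLC6A9 (ENSG00000196517.11, chromosome 1, 43991500 to 44031467, minus strand) encodes GLYT1, a sodium- and chloride-coupled glycine transporter. It had 11.4, 13 and 13.3 CPM in SUM149 with MUC1shRNA and 62.8, 57.0 and 55.2 CPM with CshRNA, a log2 fold change of -2.20 (SE 0.10). In BT-549 it had 56.0, 60.6 and 59.3 CPM with MUC1shRNA and 22, 22.4 and 26.7 CPM with CshRNA, a log2 fold change of 1.3 (SE 0.09). Groups were separate in both lines, in opposite directions, and the 1.3 was the highest of the 10 values in BT-549. Of its exon bases, 7.83% are shared with CCDC24 on the opposite strand.

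SLC43A1 (ENSG00000149150.8, chromosome 11, 57484534 to 57515786, minus strand) encodes LAT3, a facilitative carrier of leucine and other large neutral amino acids. It was the lowest of the 10 in CPM in every group. SUM149 had 0.826, 0.891 and 0.675 CPM with MUC1shRNA, which are 7, 8 and 7 counts, against 16.8, 16.9 and 17.8 CPM with CshRNA. The silenced libraries lay below the controls by a log2 fold change of -4.41 (SE 0.17), a value that rests on few counts in the silenced libraries. In BT-549, 2.21, 2.77 and 3.08 CPM with MUC1shRNA overlapped 3.36, 2.59 and 2.66 CPM with CshRNA, at -0.11 (SE 0.19).

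**Figure D1:**
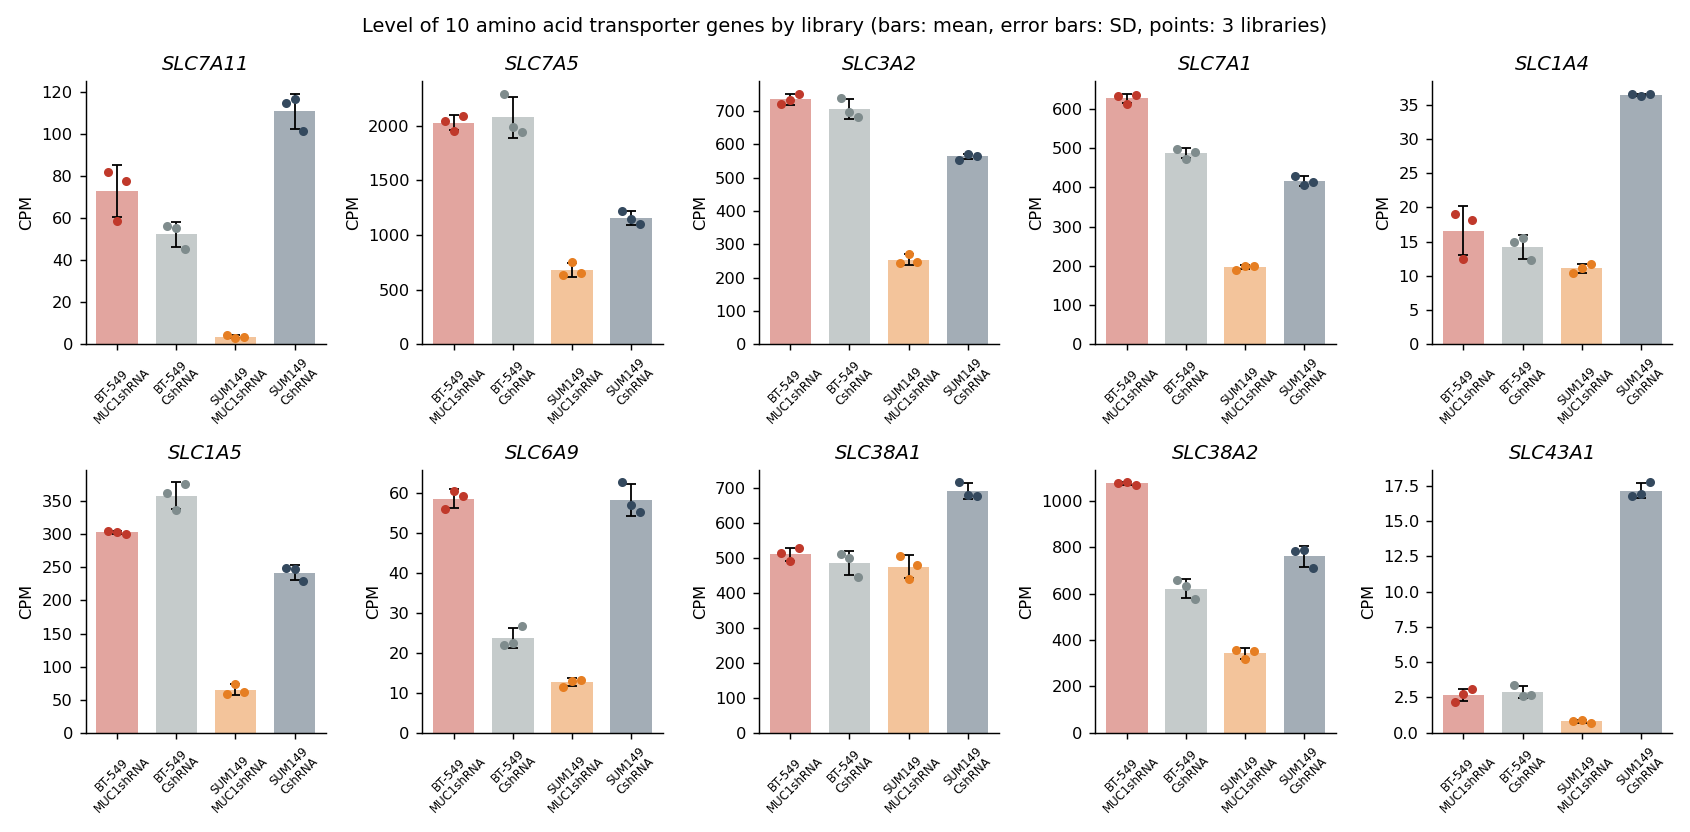
Level of each of the 10 genes in CPM (vertical axis, starting at 0 and scaled per gene) in the 4 groups, with MUC1shRNA left of CshRNA in each line. Bars are means of 3 libraries, error bars are SD and points are libraries, and in SUM149 every MUC1shRNA point lies below every CshRNA point for all 10 genes.

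In SUM149 the silenced libraries thus lay below the controls without overlap for all 10 genes, as they did for 33.3% of the 14178 genes with enough counts in that line. In BT-549 the silenced libraries lay above the controls without overlap for 4 of the 10 (SLC7A11, SLC7A1, SLC6A9 and SLC38A2) and below them for 1 (SLC1A5), as they did for 23.8% and 23.2% of 13200 genes. These counts come from the contrasts that were known when the genes were picked, so they describe the list and support nothing. The BT-549 log2 fold change of SLC7A11 was 0.38 without MUC1shRNA 1 and 0.43 without MUC1shRNA 3, and that of SLC1A4 was 0.30 without MUC1shRNA 2 and CshRNA 3. Without SUM149 CshRNA 3, the 10 SUM149 log2 fold changes ran from -5.05 (SLC7A11) to -0.55 (SLC38A1).

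The median log2 fold change of the 10 genes was 0.15 in BT-549 and -1.42 in SUM149, where the medians of all tested genes were -0.01 and -0.03. Within SUM149 the changes covered a wide span, with SLC7A11 and SLC43A1 beyond -4, SLC6A9 at -2.20, SLC1A5 and SLC1A4 between -1.88 and -1.70, and SLC38A2, SLC3A2 and SLC7A1 from -1.14 to -1.07. SLC7A5 and SLC38A1 changed least. The 3 genes of lowest CPM under CshRNA were SLC43A1, SLC1A4 and SLC6A9, and the 4 highest, SLC7A5, SLC38A2, SLC38A1 and SLC3A2, had changes no larger than -1.14.

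**Figure D2:**
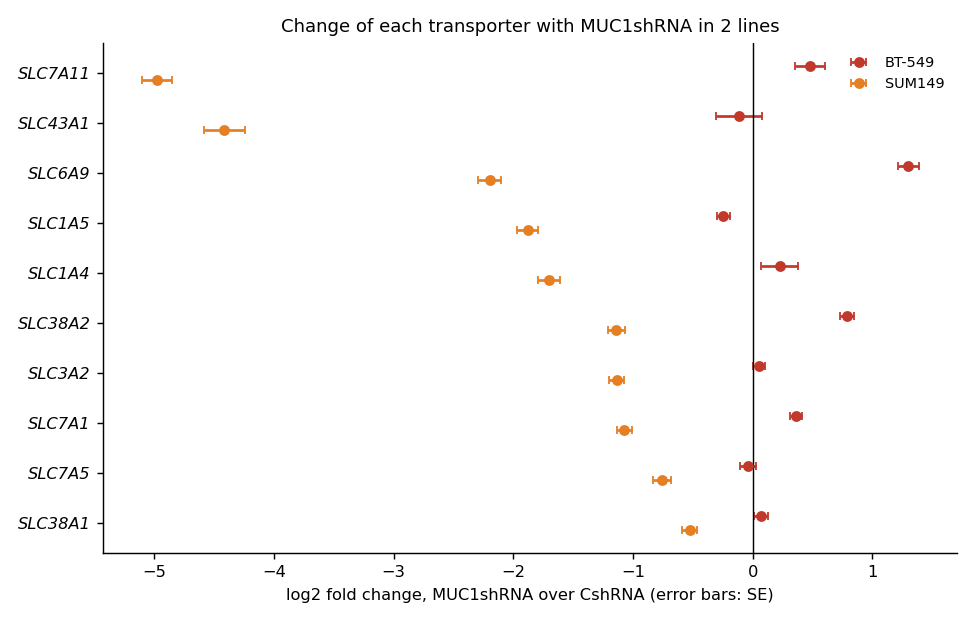
Log2 fold change, MUC1shRNA over CshRNA (horizontal axis), of each gene in BT-549 and SUM149, with bars of 1 SE. SUM149 values run from -4.98 (SLC7A11) to -0.53 (SLC38A1), and BT-549 values from -0.25 (SLC1A5) to 1.3 (SLC6A9).

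The response in BT-549 minus that in SUM149 was positive for all 10 genes. It was 5.47 for SLC7A11, 4.32 for SLC43A1 and 3.51 for SLC6A9 on the log2 scale. SLC38A2 and SLC1A4 had 1.94 each, SLC1A5 had 1.65, SLC7A1 had 1.45 and SLC3A2 had 1.21. SLC7A5 at 0.74 and SLC38A1 at 0.61 differed least between the lines. The difference is built from the contrasts known when the genes were picked and is likewise a description, with no test. Over all 15649 genes, 39.6% were called by edgeR for this difference, 19.5% with a positive sign.

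The lines were next compared with each other, first without silencing. The comparison uses libraries that also enter the known contrasts, so its values for the 10 genes are given with no test. Line, medium and any batch cannot be told apart in it. Genes with an adjusted p below 0.05 in edgeR's quasi-likelihood test were called. Among CshRNA libraries, 4 of the 10 genes were higher and 6 lower in BT-549 than in SUM149. Of 15155 tested genes, 82.8% were called, 39.5% higher and 43.3% lower, so a difference between the lines was common. SLC43A1 differed most, with a log2 difference, BT-549 over SUM149, of -2.57 (SE 0.13). SLC1A4 at -1.36, SLC6A9 at -1.3 and SLC7A11 at -1.09 were also at least 2-fold lower in BT-549. The glutamine importers SLC38A1, at -0.51, and SLC38A2, at -0.29, were lower by less. SLC7A5 was 0.85 higher in BT-549, SLC1A5 0.57 and SLC3A2 0.33. SLC7A1 was 0.23 higher, and only 0.09 higher under upper-quartile scaling, which moved the median of all genes by -0.13. For each of the 10 genes the 3 BT-549 libraries were separate from the 3 SUM149 libraries, as they were for 40.3% (higher) and 44.4% (lower) of all tested genes.

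Among MUC1shRNA libraries, 9 of the 10 genes were higher in BT-549 than in SUM149 without overlap, as were 42.8% of 13931 genes. This comparison is the sum of the CshRNA difference and the difference between responses, so its values are given with no test. SLC7A11, SLC1A4, SLC6A9, SLC38A2 and SLC43A1, all lower in BT-549 under CshRNA, were thus higher there under MUC1shRNA. SLC7A11 had a log2 difference of 4.37 (SE 0.17). SLC1A5 and SLC6A9 had 2.20 each, and SLC43A1 had 1.72. With 7, 8 and 7 counts in SUM149, SLC43A1 passed the filter on low counts here only through its BT-549 level. SLC7A1 (1.66), SLC38A2 (1.64), SLC7A5 (1.57) and SLC3A2 (1.52) differed by about the same factor. SLC1A4 was 0.56 higher. SLC38A1, with 490.6 to 527 CPM in BT-549 and 440.3 to 504 CPM in SUM149, overlapped between the lines at 0.09 (SE 0.06). Its value was -0.02 under upper-quartile scaling, which moved the median of all genes by -0.11, 0.18 without a filter on low counts and 0.15 without SUM149 MUC1shRNA 1.

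**Figure D3:**
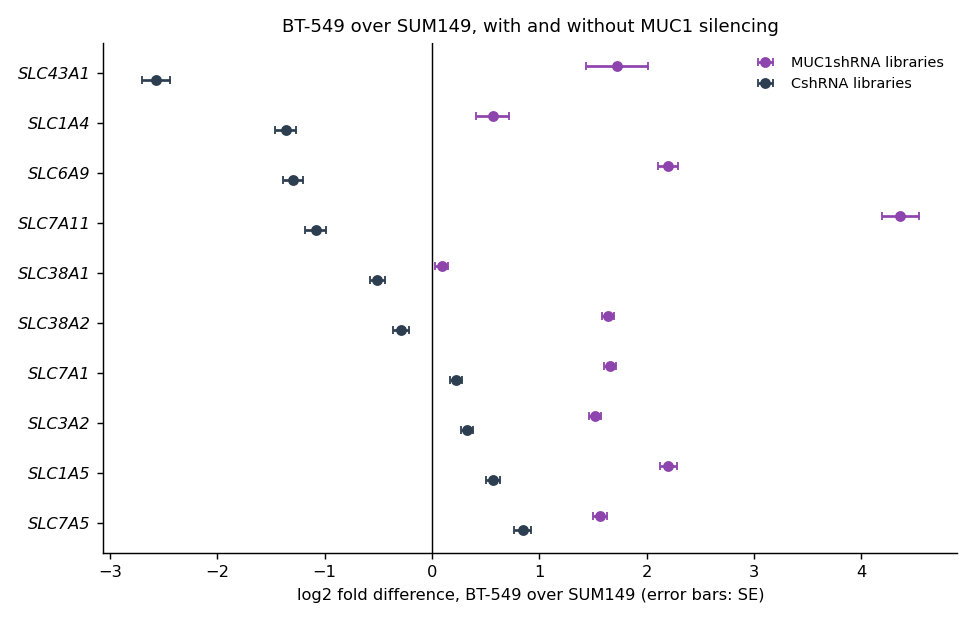
Log2 difference, BT-549 over SUM149 (horizontal axis), of each gene in MUC1shRNA and in CshRNA libraries, with bars of 1 SE. CshRNA values lie on both sides of 0, from -2.57 (SLC43A1) to 0.85 (SLC7A5), and MUC1shRNA values run from 0.09 (SLC38A1) to 4.37 (SLC7A11).

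To compare genes with one another, levels were expressed as CPM per kilobase of annotated exon. On this scale SLC7A5 was the highest of the 10 in every group, at 428 ± 14.4 in BT-549 with MUC1shRNA, 438 ± 40.4 in BT-549 with CshRNA, 143 ± 13.5 in SUM149 with MUC1shRNA and 244 ± 13 in SUM149 with CshRNA (SD, n = 3 each). In BT-549 with MUC1shRNA, SLC38A2 (163 ± 0.775), SLC3A2 (142 ± 3.11), SLC1A5 (90.9 ± 0.488), SLC7A1 (81.6 ± 1.57) and SLC38A1 (50.9 ± 1.84) followed, and no neighbours overlapped. With CshRNA, BT-549 had SLC3A2 at 137 ± 5.84, then SLC1A5 at 108 ± 6.03 and SLC38A2 at 94.2 ± 6.28, so SLC38A2 stood 2 places lower. The end of the order was SLC6A9 (11.4 ± 0.458), SLC7A11 (7.55 ± 1.29), SLC1A4 (2.39 ± 0.515) and SLC43A1 (0.761 ± 0.124) in silenced BT-549. In its controls SLC7A11 (5.43 ± 0.622) and SLC6A9 (4.59 ± 0.501) overlapped, above SLC1A4 (2.05 ± 0.247) and SLC43A1 (0.813 ± 0.121).

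In SUM149 with MUC1shRNA, SLC38A2 (51.8 ± 3.32), SLC3A2 (49.1 ± 2.98) and SLC38A1 (47.3 ± 3.20) overlapped as neighbours on the per-kilobase scale, above SLC7A1 (25.5 ± 0.729) and SLC1A5 (19.5 ± 2.41). SLC6A9 (2.44 ± 0.195), SLC1A4 (1.60 ± 0.0994), SLC7A11 (0.364 ± 0.0790) and SLC43A1 (0.226 ± 0.0315) came last. SUM149 controls had SLC38A2 at 115 ± 6.81 and SLC3A2 at 109 ± 1.62, which overlapped, then SLC1A5 at 72.6 ± 3.37 and SLC38A1 at 68.9 ± 2.21, which overlapped too, and SLC7A1 at 54.2 ± 1.57. The lower end was SLC7A11 (11.5 ± 0.871) and SLC6A9 (11.3 ± 0.767), overlapping, SLC1A4 (5.26 ± 0.0210) and SLC43A1 (4.86 ± 0.148). With the longest transcript as the length, SLC3A2, whose exon union spans 5178 bases and longest transcript 2222, was at 331, 318, 114 and 254 in the same order of groups, and stood above SLC38A2 in each. On that length SLC3A2 (254 ± 3.77) also overlapped SLC7A5 (255 ± 13.6) in SUM149 controls. Other places moved too. SLC6A9 stood above SLC7A11 in BT-549 controls (7.57 ± 0.826 and 5.43 ± 0.622) and SUM149 controls (18.6 ± 1.26 and 11.5 ± 0.871). In SUM149 controls SLC43A1 (6.60 ± 0.201) stood above SLC1A4 (6.31 ± 0.0251). The mean of SLC38A1 (85.5 ± 2.74) was above that of SLC1A5 (83.9 ± 3.89) there, but their libraries overlapped. In BT-549 controls the mean of SLC38A2 (127 ± 8.49) was above that of SLC1A5 (124 ± 6.98), with overlapping libraries, so the shift of SLC38A2 by 2 places was not seen.

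Added up, the 10 genes took 5451, 5310 and 5534 CPM in BT-549 with MUC1shRNA and 5164, 4727 and 4599 CPM with CshRNA. The SUM149 sums were 2016, 2083 and 2014 CPM with MUC1shRNA against 4184, 4069 and 3901 CPM with CshRNA. The ratio of mean sums, MUC1shRNA over CshRNA, was 1.12 in BT-549 and 0.503 in SUM149. SLC7A5 alone made up 37.4% and 43.0% of the sum in silenced and control BT-549, and 33.3% and 28.5% in silenced and control SUM149. SLC38A1 took 23.3% of the sum in silenced SUM149 and 17.0% in its controls, since it changed least.

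Ratios within a library show how partners and relatives shifted against each other. SLC7A5 over SLC3A2, per kilobase, was 3.01 ± 0.0932 in BT-549 with MUC1shRNA and 3.20 ± 0.157 with CshRNA, and 2.91 ± 0.0986 in SUM149 with MUC1shRNA and 2.24 ± 0.147 with CshRNA (SD, n = 3 each). Each SUM149 MUC1shRNA library, at 2.83 to 3.02, was above each of its controls, at 2.11 to 2.40. In BT-549 each MUC1shRNA library, at 2.91 to 3.09, was below each control, at 3.10 to 3.38, by a narrow margin. SLC7A11 over SLC3A2 was 0.00749 ± 0.00194 in silenced SUM149 and 0.106 ± 0.00835 in its controls, while in BT-549 it was 0.0531 ± 0.00930 with MUC1shRNA and 0.0397 ± 0.00355 with CshRNA. So the 2 light chains moved apart in SUM149, with SLC7A11 over SLC7A5 at 0.00259 ± 0.000750 under MUC1shRNA against 0.0472 ± 0.00236 under CshRNA.

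For the sodium-coupled pair, SLC38A2 over SLC38A1 was 3.20 ± 0.131 in BT-549 with MUC1shRNA and 1.95 ± 0.0221 with CshRNA. In SUM149 the ratio was 1.09 ± 0.0213 with MUC1shRNA and 1.67 ± 0.0867 with CshRNA. The silenced libraries thus lay above the controls in BT-549 and below them in SUM149, without overlap in either. SLC1A5 over SLC1A4 was 39.4 ± 9.60 in BT-549 with MUC1shRNA and 53.2 ± 9.55 with CshRNA, which overlapped. In SUM149 it was 12.2 ± 1.48 with MUC1shRNA and 13.8 ± 0.680 with CshRNA, which overlapped as well, so in SUM149 both members of that family were lower by about the same factor. The size of a ratio depends on the lengths used, but its comparison between groups does not.

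**Figure D4:**
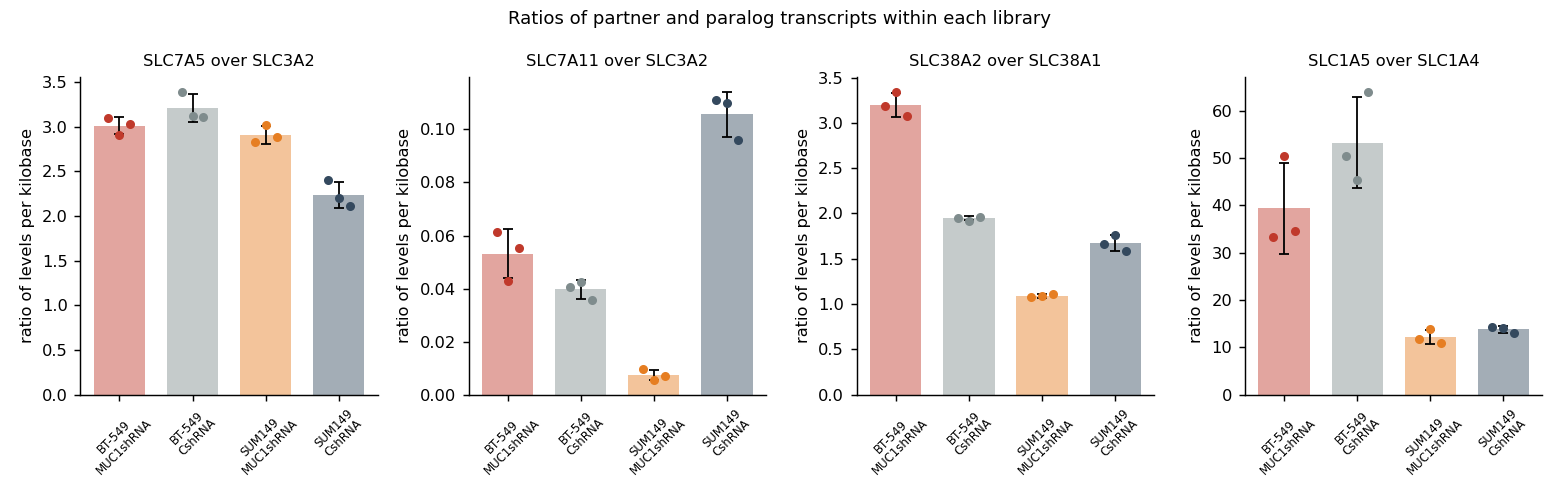
Ratio of levels per kilobase within each library (vertical axis, starting at 0) for SLC7A5 over SLC3A2, SLC7A11 over SLC3A2, SLC38A2 over SLC38A1 and SLC1A5 over SLC1A4 in the 4 groups. Bars are means of 3 libraries, error bars are SD and points are libraries, and SLC7A11 over SLC3A2 is 0.00749 in silenced SUM149 against 0.106 in its controls.

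Genes with the pattern most like that of SLC7A11 or SLC7A5 were sought among 12125 genes tested in both lines. Likeness was the root mean square difference, on the log2 scale, between the profiles of the 4 group means, each centred on its own mean. For SLC7A11 the nearest were CHAC1 (0.22), ADM2 (0.33), NUPR1 (0.40), ASNS (0.56) and PTGFR (0.58). CHAC1, a glutathione-degrading enzyme, had group means of 14.6 and 11.3 CPM in silenced and control BT-549, and 0.520 and 16.3 CPM in silenced and control SUM149. ASNS, asparagine synthetase, had 220 and 187 CPM in silenced and control BT-549, and 20.4 and 213 CPM in silenced and control SUM149. For SLC7A5 the nearest were FKBP10 (0.02), MICAL1 (0.04), SOX12 (0.04), SNHG6 (0.05) and RPS23P8 (0.05). A profile over 4 means says nothing on whether genes share a function or control.

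Other genes of amino acid transport and sensing came from lists that were written with earlier results of these data known, and each gene was tested over all genes with edgeR. Of 30 other amino acid transporters of the plasma membrane, 10 had enough counts in each line, not all of them the same genes. Over all genes tested, 56.5% were called in SUM149 (27.6% higher and 28.9% lower) and 33.3% in BT-549 (16.8% higher and 16.5% lower), the shares against which each count below is to be read. Without MUC1shRNA 1, 2716 genes were called in BT-549, against 4398 with all libraries. In SUM149 4 were higher with MUC1shRNA and 1 lower, and in BT-549 1 was higher and 3 lower. SLC7A6, which pairs with SLC3A2 to exchange cationic for neutral amino acids, rose in SUM149 to 60.1 ± 1.61 CPM, against 23.1 ± 2.33 CPM with CshRNA (log2 fold change 1.39, SE 0.09, adjusted p = 2.57e-08, edgeR). In BT-549 it was not called, with 17.1 ± 0.520 CPM against 20.4 ± 2.23 CPM (-0.26, adjusted p = 0.0634, edgeR). SLC6A6, the taurine transporter, rose in SUM149 (97.5 ± 4.10 against 77.1 ± 7.89 CPM, 0.35, SE 0.08, adjusted p = 0.00262, edgeR) and fell in BT-549 (47.7 ± 4.09 against 64.2 ± 6.11 CPM, -0.43, SE 0.09, adjusted p = 0.00500, edgeR). SLC6A15, a transporter of branched-chain amino acids, fell in SUM149 by -0.31 (adjusted p = 0.00276, edgeR). SLC43A2, which encodes LAT4, fell in BT-549 by -0.44 (adjusted p = 0.00279, edgeR). SLC1A6, a glutamate transporter with no counts in SUM149, fell in BT-549 by -0.51 (adjusted p = 0.0158, edgeR), and was past the threshold neither without MUC1shRNA 1 (adjusted p = 0.0613) nor without CshRNA 1 (0.0687).

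Further genes called, named after their values were seen, were the glutamate transporter SLC1A3, higher in SUM149 (0.31) and BT-549 (0.27), and the aromatic amino acid transporter SLC16A10, higher in SUM149 (0.59). In BT-549 SLC1A3 was not called, so that 0 of these genes were higher, when MUC1shRNA 1, 2 or 3 or CshRNA 1 or 2 was left out. In SUM149 2 genes were lower without MUC1shRNA 3 or without CshRNA 1. The median log2 fold change of the 10 other plasma membrane transporters tested in a line was -0.34 in BT-549 and -0.03 in SUM149. These medians cover different sets, since SLC1A2, SLC1A6 and SLC7A7 were tested only in BT-549. SLC7A2, SLC7A8 and SLC38A5 were tested only in SUM149.

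Among lysosomal amino acid transporters, 4 of 8 tested genes rose and 1 fell in SUM149 (27.6% and 28.9% of all genes), and 1 of 9 rose and 2 fell in BT-549 (16.8% and 16.5% of all genes). MFSD12, which imports cysteine into lysosomes, rose in SUM149 (77.7 ± 4.85 against 41.3 ± 1.22 CPM, 0.93, SE 0.07, adjusted p = 1.98e-07, edgeR). SLC66A1, a lysosomal exporter of cationic amino acids, rose there by 0.48 (adjusted p = 0.00173, edgeR). SLC38A9, an arginine sensor of the lysosome, rose in both lines, by 0.54 in SUM149 (adjusted p = 0.000867) and 0.36 in BT-549 (adjusted p = 0.00714, edgeR). The falls of SLC66A1 (-0.41, adjusted p = 0.0125, edgeR) and MFSD12 (-0.27, adjusted p = 0.0475, edgeR) in BT-549 both missed the threshold without MUC1shRNA 1 (0.0620 and 0.179) and without MUC1shRNA 3 (0.0548 and 0.161), and that of MFSD12 also without CshRNA 1 (0.119) or CshRNA 3 (0.121). Named after their values were seen, the cystine exporter CTNS was higher (0.38) and the proton-coupled carrier SLC36A1 lower (-0.70) in SUM149. SLC36A1 was not called there when MUC1shRNA 1, 2 or 3 or CshRNA 3 was left out.

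Of 11 tested mitochondrial amino acid carriers, 4 rose and 3 fell in SUM149 (27.6% and 28.9% of all genes), and 1 rose and 3 fell in BT-549 (16.8% and 16.5%). SFXN1, a serine carrier, fell in both lines, by -0.76 in SUM149 (adjusted p = 9.75e-06) and -0.54 in BT-549 (adjusted p = 0.000379, edgeR), and its relative SFXN3 fell by -0.25 in SUM149 (adjusted p = 0.0137) and -0.50 in BT-549 (adjusted p = 0.00444, edgeR). SLC25A13, a carrier of aspartate and glutamate, rose in SUM149 by 0.85 (adjusted p = 2.84e-07, edgeR), to 94.5 ± 5.31 CPM against 52.9 ± 2.05 CPM. SLC25A44, a carrier of branched-chain amino acids, rose there by 0.43 (adjusted p = 0.000168, edgeR). SLC25A12, the relative of SLC25A13, rose in BT-549 by 0.31 (adjusted p = 0.0102, edgeR). The other genes called, named after their values were seen, were SLC25A15 (0.29), SLC25A22 (0.35) and SLC25A38 (-0.35) in SUM149 and SLC25A29 (-0.54) in BT-549.

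Of the genes through which mTORC1 senses amino acids, 31 were tested in each line, with SESN3 only in SUM149 and CASTOR2 only in BT-549. In SUM149 9 were higher and 7 lower, and in BT-549 6 were higher and 4 lower. Over all genes the shares were 27.6% higher and 28.9% lower in SUM149 and 16.8% higher and 16.5% lower in BT-549, so these counts are near the background and are no result about the list. SESN2, a leucine sensor that restrains mTORC1, fell in SUM149 to 6.89 ± 1.18 CPM, against 58.5 ± 4.22 CPM with CshRNA (-3.07, SE 0.12, adjusted p = 3.97e-10, edgeR). In BT-549 it rose to 54.4 ± 2.75 CPM, against 35.5 ± 1.99 CPM (0.61, SE 0.07, adjusted p = 0.000208, edgeR). LAMTOR3, a subunit of the lysosomal anchor of mTORC1, fell in SUM149 by -1.96 (adjusted p = 3.13e-08) and in BT-549 by -0.70 (adjusted p = 0.000282, edgeR). FNIP1, a partner of folliculin, rose by 0.40 in SUM149 (adjusted p = 0.00116) and 0.65 in BT-549 (adjusted p = 4.38e-05, edgeR). MTOR itself rose in SUM149 by 0.62 (adjusted p = 3.77e-06, edgeR). Named after their values were seen, TSC1 (-0.54), RHEB (-0.20) and RRAGA (-0.15) were the other genes lower in BT-549, and RRAGD, a Rag GTPase, was among those higher, with 3.73 ± 0.534 CPM with MUC1shRNA against 0.760 ± 0.522 CPM with CshRNA (2.24, SE 0.35, adjusted p = 0.00112, edgeR). RRAGD was near the floor in BT-549 controls, at 0.392 to 1.36 CPM, and passed the filter on low counts only through its MUC1shRNA level. The BT-549 counts were 3 higher without MUC1shRNA 1, CshRNA 1 or CshRNA 3, and 2 lower without MUC1shRNA 1 or 3. In SUM149 4 were lower without MUC1shRNA 1.

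A list of 23 genes known to act on amino acid transporters or on the stress response that controls them held transcription factors, kinases, KEAP1, the phosphatase subunits PPP1R15A and PPP1R15B, and a ubiquitin ligase. In SUM149 12 of them were lower and 5 higher (52.2% and 21.7%, against 28.9% and 27.6% of all genes), and in BT-549 1 was lower and 9 higher (4.35% and 39.1%, against 16.5% and 16.8%). This list too was written with earlier results of these data known, so its shares are a description and no test of the list. ATF4 fell in SUM149 to 137 ± 7.43 CPM, against 437 ± 10.0 CPM with CshRNA (-1.66, SE 0.07, adjusted p = 5.55e-10, edgeR). In BT-549 it had 426 ± 10.2 CPM with MUC1shRNA and 419 ± 10.0 CPM with CshRNA (0.02, adjusted p = 0.769, edgeR). TRIB3, a pseudokinase and target of ATF4, fell in SUM149 by -2.18 (SE 0.08, adjusted p = 2.30e-10) and rose in BT-549 by 0.51 (SE 0.06, adjusted p = 0.000395, edgeR). DDIT3, the stress factor CHOP, fell in SUM149 by -2.56 (SE 0.14, adjusted p = 6.54e-09) and rose in BT-549 by 0.34 (SE 0.10, adjusted p = 0.0260, edgeR). ATF5 fell in BT-549 by -0.90 (adjusted p = 0.000167, edgeR). SGK1, a kinase that acts on transporter trafficking, rose in BT-549 by 1.18 (adjusted p = 7.60e-06) and in SUM149 by 0.34 (adjusted p = 0.00187, edgeR), and EPAS1, which encodes HIF-2 alpha, rose in BT-549 by 0.63 (adjusted p = 0.000107, edgeR). The other genes higher in SUM149, named after their values were seen, were the ubiquitin ligase NEDD4L (1.21), EIF2AK4 (0.68), the NFE2L2 inhibitor KEAP1 (0.61) and EIF2AK2 (0.42). NFE2L2 itself, also named afterwards, fell there by -1.09 (adjusted p = 1.92e-08, edgeR). In BT-549 2 were lower without CshRNA 2 or CshRNA 3. These are transcript levels, and ATF4 is controlled largely at translation.

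As a wider frame, of 178 other SLC genes tested in SUM149, 53 rose and 47 fell (29.8% and 26.4%, near the 27.6% and 28.9% of all genes), with a median log2 fold change of 0.03. In BT-549, 26 of 159 rose and 37 fell (16.4% and 23.3%, against 16.8% and 16.5%), with a median of -0.07, and 24 fell without CshRNA 1.

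**Figure D5:**
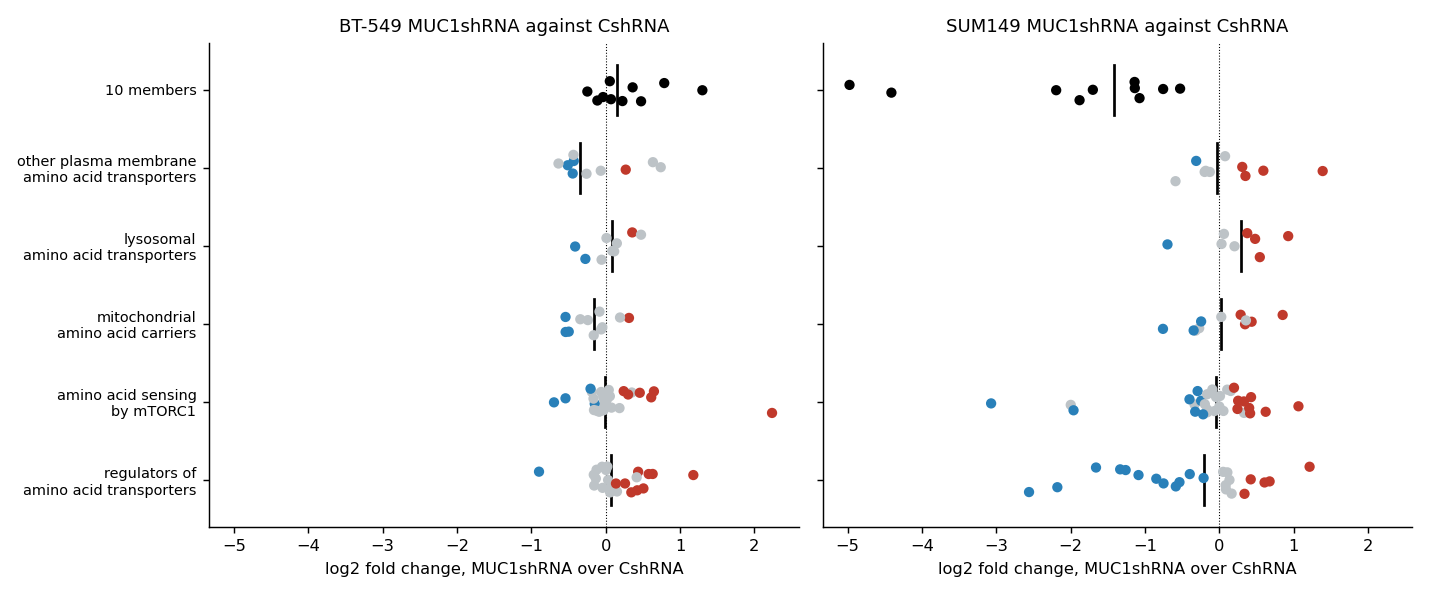
Log2 fold change, MUC1shRNA over CshRNA (horizontal axis), of the 10 genes and of 5 lists in BT-549 (left) and SUM149 (right). Each point is a gene, red and blue points were called higher and lower by edgeR, grey points were not called, the 10 genes are black because they carry no test, and vertical bars are medians (for the 10 genes 0.15 in BT-549 and -1.42 in SUM149).

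Marker genes of other states and cell types moved in some groups. Summed levels of 7 epithelial markers were 807 to 1046 CPM in BT-549 with MUC1shRNA against 328 to 382 CPM with CshRNA, through KRT8 and KRT18, and 1806 to 1890 CPM with MUC1shRNA against 1846 to 1873 CPM with CshRNA in SUM149. Within the SUM149 sum, KRT5 was lower (136 ± 3.19 CPM with MUC1shRNA against 274 ± 14.9 CPM with CshRNA, -0.99, adjusted p = 5.99e-08, edgeR) and KRT17 higher (36.8 ± 3.89 against 25.2 ± 0.294 CPM, 0.56, adjusted p = 0.000145, edgeR). KRT14 was also higher in SUM149, at low levels (1.87 ± 0.798 CPM with MUC1shRNA against 0.874 ± 0.107 CPM with CshRNA, 1.11, adjusted p = 0.0114, edgeR). CDH1 and EPCAM were at or under 1.72 CPM in every BT-549 library. The sum of 4 mesenchymal markers was 3032 to 3409 CPM in SUM149 with MUC1shRNA against 816 to 915 CPM with CshRNA, mostly FN1, while VIM had 32.3 ± 3.57 and 31.4 ± 1.85 CPM. In BT-549 that sum was 3370 to 4395 CPM with MUC1shRNA against 3168 to 3683 CPM. The 6 leukocyte markers summed to 5.14 CPM at most in any library. ERBB2, which encodes HER2, had group means of 46.5 and 48.5 CPM in silenced and control BT-549 (-0.06, adjusted p = 0.486, edgeR). In SUM149 ERBB2 fell to 36.6 CPM with MUC1shRNA, against 58.6 CPM with CshRNA (-0.67, adjusted p = 9.87e-06, edgeR). ESR1, of the estrogen receptor, rose there to 4.88 CPM, against 2.32 CPM (1.09, adjusted p = 0.000365, edgeR). ESR1 in BT-549 and PGR, of the progesterone receptor, in both lines had too few counts for a test. The 4 endothelial markers reached at most 0.783 CPM in BT-549, and in SUM149 9.45 to 11.2 CPM with MUC1shRNA against 26.8 to 30.2 CPM with CshRNA, almost all PECAM1. The 4 fibroblast markers, nearly all COL1A1, summed to 1150 to 1226 CPM in BT-549 with MUC1shRNA against 1001 to 1097 CPM with CshRNA, and to 26.0 to 29.6 against 31.4 to 42.1 CPM in SUM149. The part of these markers, and of the depth gap in SUM149, in the transporter values was not tested.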

How the data were processed

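RNA sequencing was analysed in 12 libraries of the cell lines BT-549 and SUM149, 3 in each of 4 groups. Per the labels' protocols, total RNA came from Trizol extraction, and the TruSeq Stranded mRNA kit was used for the libraries. The authors deposited a table of raw read counts per Ensembl gene and library, without normalization. GRCh38.p7 as the build, and STAR 2.7.0, CASAVA 1.8.2 and DESeq2 1.24.0 as tools, are listed per the submitters' processing notes with no role. For the step that counted reads, tool, annotation and strand setting were not given in the sources used here, so genes sharing exon bases with a gene on either strand are given with that overlap. A check found whole numbers throughout, and all 12 columns were matched to samples by their labels. Replicates differed by a chi-square per degree of freedom of 1.85 to 14.5 over genes of at least 20 counts, so none was a copy of another of its group.

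Names, coordinates and exon lengths came from GENCODE release 29 on GRCh38, and 45 pseudoautosomal copies on the Y chromosome were left out. Counts were fitted with edgeR 4.0.16 in R 4.3.3, with TMM scaling, the filterByExpr defaults and the quasi-likelihood test, over the libraries of each comparison alone, and over all 12 for the difference between responses. p-values were adjusted by Benjamini-Hochberg over all genes tested, and genes below 0.05 were called. SE is that of the log2 fold change. CPM used TMM over all 12 libraries. Each library held between 7931614 and 24140623 counts.

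The 10 genes, the lists, the motifs and the tests were chosen with earlier results of these data known. All 10 genes are named in each comparison, MUC1 in each line, and 3 genes of each list per line, those of smallest adjusted p; the 5 nearest profiles are named for SLC7A11 and SLC7A5. The proteins that the rule also named were not used here. The code was tested on simulated data. Alternatives were limma 3.58.1 (voom), DESeq2 1.42.0, upper-quartile and RLE scaling, a stricter filter (5 CPM in 3 libraries) or none, a replicate block, all 12 libraries in one fit, each library left out in turn, BT-549 without CshRNA 3 and MUC1shRNA 2, and the longest transcript as gene length.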

Additional observations from a re-analysis of the deposited data

Results flagged for a closer look

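The response of several genes to MUC1shRNA differed between the lines. The list genes below were named for small adjusted p in the response of a line, from which this difference is built. Their p-values for the difference carry that selection and are no independent test. In an interaction fitted by edgeR over all 12 libraries, the response in BT-549 minus that in SUM149, on the log2 scale, was 3.70 for SESN2 (adjusted p = 1.33e-10), 2.92 for DDIT3 (1.55e-08), 2.7 for TRIB3 (1.37e-10) and 1.70 for ATF4 (4.74e-10). It was 1.28 for LAMTOR3 (adjusted p = 7.32e-06, edgeR), which fell in both lines, 0.86 for SGK1 (2.66e-05), which rose in both, and 0.51 for EPAS1 (0.000360). The difference was negative for the transporters SLC7A6 at -1.63 (adjusted p = 2.27e-07, edgeR), MFSD12 at -1.18 (2.27e-06), SLC25A13 at -0.88 (1.57e-06), SLC66A1 at -0.88 (0.000281), SLC6A6 at -0.77 (0.000218) and SLC25A44 at -0.48 (0.000424). It was negative too for ATF5 at -1.05 (adjusted p = 2.74e-05, edgeR) and MTOR at -0.57 (7.87e-05).

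Among the 10 transporters, all 3 silenced libraries lay above all controls in BT-549 and below all controls in SUM149 for SLC7A11, SLC6A9, SLC38A2 and SLC7A1. Their differences were 5.47, 3.51, 1.94 and 1.45 in that order. These differences were not tested, since the genes were picked with the responses known.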

How the results depend on the processing

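The 10 transporters kept the direction of their SUM149 change, and of the difference between responses, under every alternative run. In BT-549 the sign of SLC7A5 and SLC43A1 varied, within -0.08 to 0.04 and -0.21 to 0.02. Between lines under MUC1shRNA, SLC38A1 turned to -0.024 with upper-quartile scaling, which moved the median of all genes by -0.11. Genes called in BT-549 numbered 4398, 2716 to 4470 with 1 library left out (lowest without MUC1shRNA 1), and 5325 without both MUC1shRNA 2 and CshRNA 3, where 5 mitochondrial carriers and 2 regulators were lower. A replicate block called 2951 genes in BT-549. Deviations from the group mean correlated at -0.15 to 0.10 for same-numbered libraries of a line and at -0.16 to 0.19 for different-numbered ones. These values showed no sign of pairing by number, but 3 libraries a group cannot exclude it. With the block, BT-549 gave 0 other plasma membrane transporters higher, 1 lysosomal transporter lower, and 3 mTORC1 genes higher and 2 lower. SUM149 gave 2 other plasma membrane transporters lower without a filter and 0 lysosomal transporters lower with limma-voom. With single libraries left out, BT-549 gave 0 to 1 other plasma membrane transporters higher, 0 to 2 lysosomal transporters lower, 3 to 6 mTORC1 genes higher and 2 to 4 lower, 1 to 2 regulators lower and 24 to 36 other SLC genes lower. SUM149 gave 1 to 2 other plasma membrane transporters lower, 0 to 1 lysosomal transporters lower and 4 to 7 mTORC1 genes lower. In BT-549 the fall of SLC43A2 missed the threshold with all 12 libraries in one fit (adjusted p = 0.0605), as did that of SLC6A15 in SUM149 (0.0522), and that of MFSD12 with the block (0.118). Of the 10 transporters, SLC43A1 in silenced SUM149 had the fewest counts, 7 or 8 a library.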
